A study of Mus musculus with 12 samples.

Results

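Lithium was set in the place of LIF by comparing 3 arrays of mouse embryonic stem cells grown with lithium and no LIF against 3 arrays of the same cells grown with LIF and no lithium. These 6 arrays were taken by their labels from the 12 of the series. All cells were of the D3 line, an established mouse embryonic stem cell line, kept for 7 days in serum medium before total RNA was measured. LIF was at 1000 units per ml, and the labels give lithium as 50 nM without naming the salt, far below the millimolar levels usual for inhibiting its target; whether that unit is right could not be checked here. The remaining 6 arrays were 3 with neither LIF nor lithium (LIF-free) and 3 with both (LIF plus lithium). The condition with lithium and no LIF is called lithium alone here. The labels number biological replicates 1 to 3 in each condition and do not say whether they are separate cultures, so p values measure the spread between these arrays. The labels name no clone other than D3, give no check that lithium reached its target, and do not say whether feeder cells were used.

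LIF binds a receptor made of LIFR and gp130 (the product of Il6st), and the kinases attached to it activate the transcription factor STAT3. In mouse embryonic stem cells STAT3 keeps up Klf4, Tfcp2l1 and Gbx2, which belong to the naive network around Pou5f1, Sox2 and Nanog. When LIF is removed, the cells leave this state, Klf4 and Tfcp2l1 go down, and genes of the epiblast after implantation, such as Fgf5, come up. Lithium inhibits the kinase GSK3. GSK3 marks beta-catenin for breakdown, so lithium is used at millimolar levels to imitate a Wnt signal, and inhibitors of GSK3 help to hold naive cells. The comparison asks, gene by gene, which transcripts kept up by LIF are still up when only lithium is given.

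Signals are MAS5 intensities on a linear scale, one value per probe set, and a change is a difference of log2 signals, so -1 means a fall to 50%. A gene was represented by its brightest probe set, leaving aside sets whose name marks cross-hybridisation where it had another, and 12737 genes were bright enough to be tested. A gene was called changed where limma's adjusted p was under 0.05. The median signal of an array ran from 10.5 to 19.3 over the 12 arrays, and across probe sets the correlation between 2 of the 6 compared arrays was 0.864 to 0.958 on the log2 scale. The summed signal of 5 stem cell markers (Pou5f1, Sox2, Nanog, Zfp42 and Klf4) was 8863 to 13170 with LIF and 2926 to 6041 with lithium alone, so both conditions carried the markers of the labelled cells, at a lower level with lithium alone. The summed signal of 4 feeder markers (Col1a1, Col1a2, Col3a1 and Thy1) was 56.2 to 115 with LIF and 92.5 to 136 with lithium alone. The 2 blood and trophoblast markers Ptprc and Elf5 were below the filter on dim signal. The ratio of Gapdh signal at the 3' end to that at the 5' end, a sign of RNA quality, was 0.81 to 0.82 with LIF and 0.748 to 0.802 with lithium alone, without overlap, and its part in the results was not tested. In RNA from whole cultures, fewer cells of a type and less RNA per cell cannot be told apart.

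With lithium in place of LIF, most measured genes of the naive network were called lower and most of a trophoblast and simple epithelium list were called higher. Against LIF, 619 genes were lower (4.86% of those tested) and 947 were higher (7.44%), 12.3% in all. Of these 388 and 520 differed at least 2-fold. The values of the 3 arrays per condition did not overlap in 1741 genes that were lower (13.7%) and 2146 that were higher (16.8%). Over probe sets, 2503 of 27022 were called (9.26%), and 59.1% of the calls were higher. Centring each array on its median left 1061 calls, of which 69.4% were higher. The other settings tried, named where they ended the call of a gene, were no filter on dim signal, quantile normalisation, a fit to the 6 compared arrays alone and a variance model with no intensity trend. The number of called probe sets depended on single arrays. Leaving out LIF replicate 1, 2 or 3 gave 3759, 1050 or 1468 calls, and leaving out lithium-alone replicate 1 or 2 gave 1087 or 1085. Without lithium-alone replicate 3 it was 2099. Naming rules, or values already seen, picked 107 called genes, not all of which are discussed. Of these, 54 had another tested probe set, and in 33 of the 54 another set was not called. None was called the other way. Where signals lie near the floor of 1, the size of a change rests on that floor. For called genes, changes that shrank more than 1.5-fold with a pseudocount of 16 in its place are given with both values. For uncalled genes this was done only where stated.

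The naive network was lower almost as a whole. Of 24 measured members of the naive pluripotency list, 20 fell, 4 were not called and none rose (83.3% called, beside 12.3% of all genes). The median log2 change was -1.37 beside 0.004 over all genes tested. Klf4, a direct target of STAT3 that can replace LIF when forced on, read 1075, 1739.7 and 1778 with LIF, 252, 322 and 389 without LIF, and 261, 368 and 379 with lithium alone. Every Klf4 value with lithium alone lay below every value with LIF and inside the range of the cultures with neither (log2 change -2.17 ± 0.23 SE, adjusted p = 0.000975). Tfcp2l1, another STAT3 target and a core part of the naive circuit, read 526, 555 and 713 with LIF, 220.1, 214 and 165 without LIF, and 175, 200.01 and 231 with lithium alone, again with no overlap (log2 change -1.56 ± 0.16 SE, adjusted p = 0.000975). Zfp42 (Rex1), the classical marker of undifferentiated cells, read 2916, 2854 and 2973 with LIF, 1406, 1191 and 1461 without LIF, and 925, 981 and 1555 with lithium alone (log2 change -1.38 ± 0.17 SE, adjusted p = 0.00113). Its LIF values were nearly the same on the 3 arrays, while 2 of the 3 lithium values lay below every LIF-free value.

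Other naive members fell as well. Gbx2, a homeobox gene that sustains self-renewal when expressed, read 167, 123 and 137 with LIF, 23.7, 19 and 23.9 without LIF, and 10.2, 28.4 and 30.2 with lithium alone, a fall to below every LIF value on all 3 arrays (log2 change -2.78 ± 0.36 SE, adjusted p = 0.00136). Tdgf1 (Cripto), the co-receptor for Nodal, was abundant with LIF and read 3209, 3688 and 4513 with LIF, 1019.8, 935 and 1199 without LIF, and 706, 943 and 1351 with lithium alone (log2 change -1.96 ± 0.21 SE, adjusted p = 0.000975). Jam2, a junction protein, and Nr0b1 (Dax1), a nuclear receptor of the naive network, had log2 changes of -2.40 and -2.06. Esrrb, the nuclear receptor that carries much of the effect of GSK3 inhibition in naive cells, read 362, 540.4 and 889.9 with LIF, 118, 157 and 177 without LIF, and 100.05, 170.4 and 241 with lithium alone (log2 change -1.80 ± 0.34 SE, adjusted p = 0.00652). Here too the conditions did not overlap. Tbx3, a T-box factor of the network, fell too (log2 change -1.13 ± 0.20 SE, adjusted p = 0.0051). The list's 4 uncalled members were Mybl2 (log2 change -1.15, adjusted p = 0.0537), Dppa5a (-0.38, 0.209), Stat3 (-0.24, 0.599) and Dppa3 (0.42, 0.602). Dppa3 (Stella), a factor of germ cells and naive cells, read 292, 196 and 279.7 with LIF, 294, 307 and 569 without LIF, and 158, 369 and 662 with lithium alone. Its values overlapped across the conditions. Without LIF replicate 2 the naive members called lower were 14, and at least 15 with any other 1 of the 6 arrays left out.

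**Figure D1:**
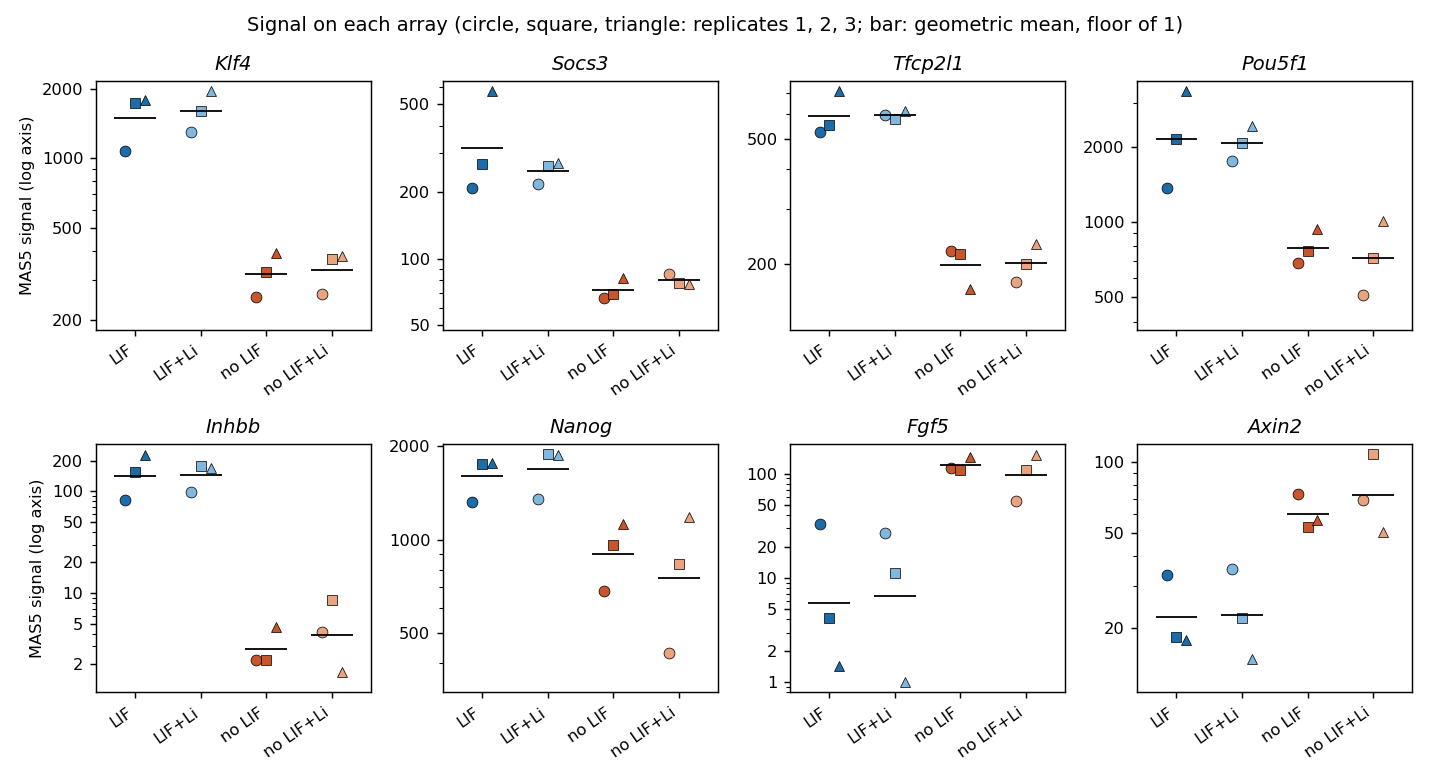
MAS5 signal (log axis) of 8 genes on each of the 12 arrays, by condition; circle, square and triangle are replicates 1, 2 and 3 and the bar is the geometric mean. In Klf4, Socs3, Tfcp2l1, Pou5f1, Nanog and Inhbb the 3 arrays with lithium and no LIF lie with the LIF-free arrays, below every array with LIF, and in Fgf5 and Axin2 they lie above every LIF array.

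Pou5f1 (Oct4) and Sox2, the factors every pluripotent state shares, fell too. Of 15 measured members of the core pluripotency list, 8 fell, 7 were not called and none rose (median log2 change -0.98, 53.3% called beside 12.3% of all genes). Without LIF replicate 2 or 3 the count was 3 or 5, and without lithium-alone replicate 1 or 2 it was 4. Pou5f1 read 1371, 2139 and 3334 with LIF, 685, 764 and 938 without LIF, and 509, 719.7 and 1014 with lithium alone (log2 change -1.57 ± 0.29 SE, adjusted p = 0.00663). Its LIF arrays spread widely, yet the lowest of them stood above the highest lithium value. Sox2 read 2176, 2803 and 3321 with LIF, 1034, 1362 and 1621 without LIF, and 799.7, 1341 and 1912 with lithium alone (log2 change -1.10 ± 0.26 SE, adjusted p = 0.0215), and Nanog read 1326, 1756 and 1762 with LIF, 679, 958 and 1120.2 without LIF, and 431, 833 and 1181 with lithium alone (log2 change -1.09 ± 0.30 SE, adjusted p = 0.0401). Both separated the conditions on all arrays. Sall1 and Dppa2, a zinc finger protein and a chromatin factor of stem cells, fell with log2 changes of -1.17 and -1.30. Sall4 (0.13, adjusted p = 0.512), Zfp281 (0.05, 0.927) and Lin28a (0.54, 0.0864) were not called, with positive estimates. Klf2 and Klf5, the other Kruppel-like factors of the naive network, had log2 changes of -1.26 and -1.20. A dimmer probe set of Klf5, at -0.615, was not called (adjusted p = 0.454). Each of Sox2, Nanog, Klf2 and Klf5 lost its call without at least 1 of LIF replicates 2 and 3 and lithium-alone replicates 1 and 2 (adjusted p up to 0.173). Sox2, Nanog, Sall1, Klf2 and Klf5 lost theirs under at least 1 of median centring, no filter, no intensity trend and the fit to 6 arrays (adjusted p up to 0.207).

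In the list of the LIF receptor and its signal transduction, 2 of 13 measured members rose, none fell and 11 were not called (median log2 change 0.20), so that 15.4% were called beside 12.3% of all genes. Lifr had a log2 change of -0.45 (adjusted p = 0.328), although a dimmer probe set of the gene was called at -1.29 (adjusted p = 0.012) and the dimmest, at -0.11, was not (0.907). In a fit with the replicate number as a block, the reported set of Lifr was called (adjusted p = 0.0193). Il6st (0.08, adjusted p = 0.83), Jak1 (0.20, 0.403) and Stat3 (-0.24, 0.599) were not called. Stat3 read 191, 255 and 386 with LIF, 184, 229 and 179 without LIF, and 239.8, 256 and 186 with lithium alone, with overlap between lithium alone and LIF. The members that rose were Ptpn11, which encodes the phosphatase SHP2 that links the receptor to ERK and dampens STAT3 (log2 change 0.81 ± 0.16 SE, adjusted p = 0.00788), and Akt1, a survival kinase (log2 change 0.92 ± 0.23 SE, adjusted p = 0.0279). The dimmer probe sets of Akt1 (0.25 and 0.68) and Ptpn11 (0.54 and 0.04) were not called. Akt1 lost its call without LIF replicate 2 or lithium-alone replicates 1 or 2 (adjusted p up to 0.114). Ptpn11 and Akt1 lost theirs under at least 1 of median centring, no intensity trend and the fit to 6 arrays (adjusted p up to 0.0919).

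Among 21 measured LIF-STAT3 targets, 7 fell, 2 rose and 12 were not called (42.9% called, beside 12.3% of all genes). Socs3, the feedback inhibitor that STAT3 induces directly, read 208, 268 and 573 with LIF, 66.5, 69.3 and 82.2 without LIF, and 85.5, 77.4 and 77.1 with lithium alone. All 3 values with lithium alone were below every LIF value, and all 3 were above the LIF-free median, with overlap (log2 change -1.99 ± 0.28 SE, adjusted p = 0.0021). The gene's other probe sets had similar log2 changes (-2.02 and -2.03). Pim3, a kinase, and Bcl3, a cofactor of NF-kappaB, fell by 1.37 and 1.36 on the log2 scale (adjusted p = 0.0296 and 0.0319). A brighter cross-hybridising probe set of Pim3 had a log2 change of -0.35 and was not called (adjusted p = 0.51). The acute response genes Junb (-0.07), Fos (0.60), Myc (0.30), Pim1 (-0.36) and Cish (0.25) were not called, with adjusted p from 0.407 to 0.947. The members that rose, Vim (1.53, adjusted p = 0.0136) and Ocln (1.28, 0.00578), encode a filament protein of mesenchymal cells and a tight junction protein. Each of Pim3, Bcl3 and Vim lost its call without at least 1 of LIF replicates 2 and 3 and lithium-alone replicates 1, 2 and 3 (adjusted p up to 0.121). Pim3 and Bcl3 lost theirs under at least 1 of median centring, no intensity trend and the fit to 6 arrays (adjusted p up to 0.112).

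The promoters of Socs3 and Esrrb, both lower with lithium alone, hold the letters that STAT dimers read, TTCNNNGAA, and are shown with that match in capitals. They are RefSeq windows of GRCm38.p6 from 250 bases before to 50 bases after the annotated start, 5′ to 3′ on the gene's strand. The Socs3 window is chr11:117969317-117969616 on the minus strand, with the match starting 154 bases before the start. The Esrrb window is chr12:86360867-86361166 on the plus strand, with the match 178 bases before the start.
Socs3: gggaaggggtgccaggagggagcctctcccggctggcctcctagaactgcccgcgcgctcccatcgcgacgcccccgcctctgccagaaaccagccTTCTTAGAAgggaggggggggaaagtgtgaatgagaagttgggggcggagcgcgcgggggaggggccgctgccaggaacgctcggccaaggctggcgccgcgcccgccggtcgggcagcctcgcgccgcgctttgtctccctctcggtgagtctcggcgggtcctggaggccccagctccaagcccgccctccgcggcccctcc
Esrrb: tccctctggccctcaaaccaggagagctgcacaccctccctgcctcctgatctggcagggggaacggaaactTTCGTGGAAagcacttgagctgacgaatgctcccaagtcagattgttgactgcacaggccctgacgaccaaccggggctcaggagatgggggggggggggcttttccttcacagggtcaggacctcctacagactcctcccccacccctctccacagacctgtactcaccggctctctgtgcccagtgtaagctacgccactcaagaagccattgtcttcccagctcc
The same letters, which read alike on both strands, were in none of the windows of Klf4, Inhbb or Axin2 or in the second Esrrb window. Of the tested genes, 10289 matched a window, and 8.05% of those held the motif. Of the genes called lower with lithium alone, 495 matched a window and 37 of them (7.47%) held it. In the LIF-STAT3 list it was in 3 of 18 matched genes (Cish, Socs3 and Zfp36), and of these Socs3 alone was called. It was in 6.35% of the 756 matched LIF-dependent genes and 7.84% of the 982 matched LIF-repressed genes chosen on the other 6 arrays, groups described further on. The TCF letters CTTTGAT, searched on both strands, were in 2 of 13 matched Wnt targets (Sp5 and Tnfrsf19), beside 3.04% of the tested genes with a window. A match is a description of the letters, not a measured binding site.

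No gene was called different between lithium alone and the cultures with neither factor. Of 27022 probe sets, 0 were called (0%), with limma on all 12 arrays, on the 6 arrays of those conditions, or with the replicate number as a block. At an unadjusted p under 0.05 there were 347 probe sets (1.28%), and the smallest adjusted p was 1. Among genes, by the reported probe set, it was 147 (1.15%). Evenly spread p values would put a share of 0.05 there, so this test may be cautious. Its 0 calls do not show that lithium had no effect. The 347 became 824 with the replicate number as a block, for which these arrays met the pairing criterion, 541 with no intensity trend, 743 without lithium-alone replicate 3 and 576 without LIF-free replicate 1. This difference equals, gene by gene, the fall against LIF without lithium taken from the fall with it. Its interval was set against the estimated fall, as a share of the log2 change, to bound what lithium could have held. The fall was taken as exact, although it has an interval of its own and shares the LIF-free arrays. For 9350 genes (73.4%) the 95% interval lay within 1 log2 unit of 0 on both sides. Values of 3 arrays against 3 can separate fully without any effect, since the smallest two-sided permutation p is 0.1. Where lithium alone and LIF-free do not overlap in a gene below, that is a description. The share of all genes that separate so is not given here.

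For Klf4 the difference between lithium alone and LIF-free was 0.07 (95% interval -0.44 to 0.57), set against a log2 change of -2.24 from LIF to LIF-free. For Tfcp2l1 it was 0.02 (95% interval -0.33 to 0.37) against -1.58, and for Zfp42 -0.27 (95% interval -0.63 to 0.10) against -1.11. The upper ends of these intervals lie below 50% of each fall. LIF-free against LIF, which shares the LIF arrays with the main comparison, had 2515 called probe sets (9.31%), and 5260 with the replicate number as a block, for which the arrays met the pairing criterion. The 2515 became 1039 without LIF-free replicate 2 and 3950 without LIF replicate 1. By that comparison 17 naive members fell, and in 15 of them the upper bound for lithium was under 50% of the fall. The 2 exceptions were Klf5, at 0.10 (95% interval -0.45 to 0.65) against -1.30, and Nr5a2, at 0.03 (95% interval -0.48 to 0.53) against -0.86. Of the 7 core members lower without LIF, 6 were bounded under 50%, and Utf1 was not, at -0.09 (95% interval -0.87 to 0.68) against -1.31. For Pou5f1 the difference was -0.13 (95% interval -0.77 to 0.50) against -1.44, and for Socs3 0.14 (95% interval -0.47 to 0.76) against -2.13. These bounds leave out the uncertainty of each fall. For Sox2 the upper end was 0.52 against a fall of -1.05, whose own 95% interval ran from -1.62 to -0.48. Low LIF-free values helped to pick these members, and the intervals are per gene with no adjustment over genes.

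Over all genes the bound was looser. LIF-free cultures had 659 genes lower than LIF (5.17%), and the upper bound for lithium was under 50% of the fall in 311 of them (47.2%) and under the whole fall in 631 (95.8%). For the 921 genes that were higher without LIF (7.23%), the matching bound was under 50% of the rise in 440 (47.8%) and under the whole rise in 911 (98.9%). For the rest of these genes, these intervals do not tell whether lithium took away 50% of the log2 change. All intervals and bounds come from the fit without the replicate block, although these arrays met the pairing criterion. Bounds with the block are not given here.

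**Figure D2:**
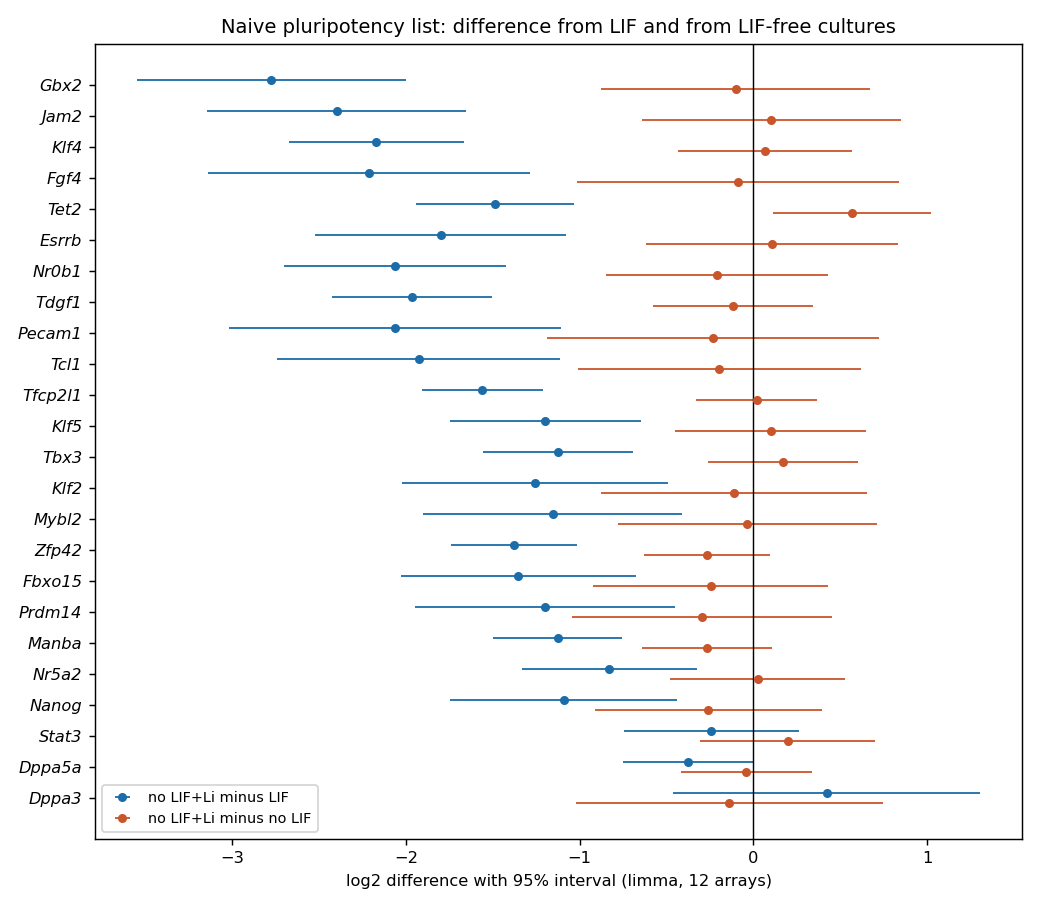
Log2 difference with its 95% interval (limma, 12 arrays) for the 24 measured members of the naive pluripotency list; blue is lithium alone minus LIF and orange is lithium alone minus LIF-free. For 20 genes the blue difference is called and negative, while the orange intervals span 0 in every gene but Tet2.

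Tet2, which encodes an enzyme that oxidises methylated DNA, was the 1 naive member with an unadjusted p under 0.05 for lithium alone against LIF-free. It read 219, 168 and 228 with LIF, 67.6, 45.3 and 38.2 without LIF, and 73.5, 67.3 and 76.8 with lithium alone. Of the lithium values, 2 lay above the LIF-free range, and all 3 lay below every LIF value. The difference from LIF-free was 0.57 (95% interval 0.11 to 1.02, unadjusted p = 0.0187, adjusted p = 1). Among all 21 lists, the only other such gene was Tcf15, a bHLH factor that primes cells to leave the naive state. Tcf15 went the other way, at -0.64 (95% interval -1.14 to -0.15, unadjusted p = 0.0151, adjusted p = 1), and read 275, 250.4 and 419 with LIF, 79.4, 106 and 116 without LIF, and 53.1, 59.3 and 81.6 with lithium alone.

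Comparisons that share arrays can look alike for that reason alone. Genes were therefore also chosen on the other 6 arrays, LIF-free against LIF plus lithium, in a fit of their own, and then read on the LIF and lithium-alone arrays, so that choice and measurement shared no array. The choice gave 937 genes lower in LIF-free than in LIF plus lithium (7.36% of the genes tested), called LIF-dependent here. It gave 1249 genes that were higher (9.81%), called LIF-repressed here. The conditions of the choice differ in lithium as well as in LIF. A place in either group therefore does not by itself show a response to LIF. Of the 937, 932 (99.5%) had a lower mean with lithium alone than with LIF, where 49.6% of all genes did. Their values did not overlap in 705 (75.2%, beside 13.7% of all genes), and in none did they separate in the opposite direction. Of the 1249, 1248 (99.9%) had a higher mean with lithium alone, beside 50.4% of all genes, and 1002 (80.2%, beside 16.8%) did not overlap. With the replicate number as a block, which the arrays of that choice allow, the choice gave 2028 and 2326 genes, of which 98.8% and 97.9% had the same sign here.

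The sizes were close as well. The median log2 change of the LIF-dependent genes was -0.97 on the arrays that chose them and -0.88 on the lithium-alone and LIF arrays, where the middle 50% of these genes ran from -1.36 to -0.53. All genes tested had a median of 0.004 and a middle 50% from -0.32 to 0.36. For the LIF-repressed genes the medians were 1.08 and 0.95. At least 2-fold changes in the same direction were seen in 398 LIF-dependent genes (42.5%) and 585 LIF-repressed genes (46.8%). Values on the arrays used for the choice are a description, since the choice favours large changes there.

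Single genes passed the test less often than they kept their sign. In a fit to the 6 compared arrays alone, 268 LIF-dependent genes were called lower (28.6%, beside 2.25% of all genes) and 384 LIF-repressed genes were called higher (30.7%, beside 3.16%), with 0 called the other way. The fit to 12 arrays called 525 and 776. The 6-array counts rested on single arrays. They were 0 and 0 without LIF replicate 2 and again without lithium-alone replicate 2. At an unadjusted p under 0.05, 580 and 882 genes passed without the former array, and 618 and 859 without the latter. The counts were 67 and 42 without lithium-alone replicate 1, 127 and 61 without lithium-alone replicate 3, 146 and 222 without LIF replicate 3, and 463 and 729 without LIF replicate 1. The share with the same sign was at least 98.8% and 99% with any 1 of the 12 arrays left out.

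**Figure D3:**
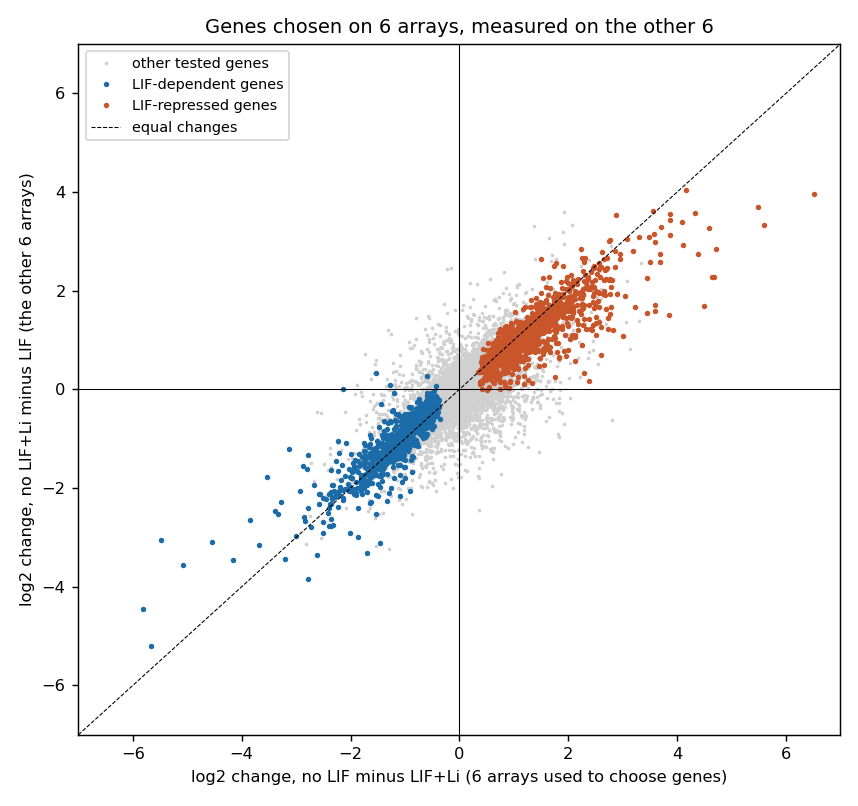
Log2 change of each tested gene with lithium alone against LIF (vertical axis, 6 arrays) by its log2 change in LIF-free against LIF plus lithium (horizontal axis, the other 6 arrays); the dashed line marks equal changes. Of the 937 LIF-dependent genes (blue) 932 lie below 0 on the vertical axis, and of the 1249 LIF-repressed genes (orange) 1248 lie above it.

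The LIF-dependent genes with the largest changes in the other arrays included Inhbb, Myo1f, Etv4, A2m and Slc47a1. Inhbb, which encodes the beta B subunit of activins, read 82, 155 and 229 with LIF, 2.21, 2.19 and 4.66 without LIF, and 4.14, 8.49 and 1.69 with lithium alone. It was the largest fall of all called genes with lithium alone, and the lithium values overlapped the LIF-free values (log2 change -5.19 ± 0.57 SE, adjusted p = 0.000975). A dimmer probe set of Inhbb had a log2 change of -1.82 and was not called (adjusted p = 0.0751). Myo1f, an unconventional myosin best known from white blood cells, read 40.4, 76.9 and 68.4 with LIF, 1.04, 0.735 and 1.25 without LIF, and 1.16, 4.57 and 3.86 with lithium alone. LIF-free was at the floor of the scale, and 2 of 3 lithium values were slightly above it (log2 change -4.45 ± 0.57 SE, adjusted p = 0.00127). A2m, a protease inhibitor and a STAT3 target in liver, read 101, 188 and 138 with LIF, 11.3, 23.5 and 7.23 without LIF, and 16, 20.6 and 11.3 with lithium alone (log2 change -3.15 ± 0.40 SE, adjusted p = 0.00127). Inhbb and Myo1f had log2 changes of -2.96 and -1.99 with the pseudocount.

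Slc47a1, a transporter that exports organic cations, read 40.8, 63.8 and 57.9 with LIF, 6.1, 6.55 and 4.12 without LIF, and 9.21, 9.66 and 10.1 with lithium alone (log2 change -2.46 ± 0.33 SE, adjusted p = 0.00145). Each lithium value was above every LIF-free value and far below every LIF value, and the difference from LIF-free was 0.82 (95% interval 0.11 to 1.53, unadjusted p = 0.0274, adjusted p = 1). Ucp1, which lets brown fat make heat, was dim and lower with lithium alone than with LIF (log2 change -3.10 ± 0.64 SE, adjusted p = 0.0108). Ttc29, a protein of cilia, read 37, 43 and 30.6 with LIF, 0.92, 0.523 and 0.808 without LIF, and 13.9, 0.681 and 6.01 with lithium alone. Arc (log2 change -3.56), an immediate early gene of neurons, and Vax2os (-2.64), a noncoding RNA, were lower as well. Ampd3, an AMP deaminase, was the 1 of these 10 genes that was not called with lithium alone (log2 change -1.77 ± 0.80 SE, adjusted p = 0.197), and read 39.6, 86.7 and 83.1 with LIF, 0.88, 13.9 and 14.7 without LIF, and 27, 16.1 and 16.7 with lithium alone. Ampd3 was called in the fit to 6 arrays (adjusted p = 0.041) and with the pseudocount (0.024). Slc47a1, Ucp1, Ttc29, Arc and Vax2os had log2 changes of -1.44, -1.32, -1.24, -1.44 and -1.07 with the pseudocount. Each of Ucp1, Ttc29, Arc and Vax2os lost its call without at least 1 of LIF replicates 2 and 3 and lithium-alone replicates 1 and 2 (adjusted p up to 0.108). Ttc29, Arc and Vax2os lost theirs under at least 1 of no filter and the fit to 6 arrays (adjusted p up to 0.0835).

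Lithium alone against LIF-free had an unadjusted p under 0.05 in 15 of the 937 LIF-dependent genes, toward the LIF level in 13 and away from it in 2. In the LIF-repressed genes it was 6 of 1249, toward LIF in 5 and away in 1. The LIF-free arrays also served to choose these genes, which favours low values there in the former and high values in the latter, so the direction is not independent of the choice. No such difference passed adjustment.

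The genes of the LIF-dependent group that were not lower with lithium alone were 1810058I24Rik, Adm2, Ighmbp2, Marchf7 and Zap70, singled out after their values were seen. They were chosen as lower in LIF-free than in LIF plus lithium, which does not show that LIF keeps them up. The gene 1810058I24Rik, of a small mitochondrial protein, read 769, 985 and 952 with LIF, 612, 574 and 646 without LIF, and 1322, 1082 and 882 with lithium alone. Its lithium values all lay above its LIF-free values and within or above the LIF range. The difference from LIF-free was 0.82 (95% interval 0.49 to 1.16, unadjusted p = 0.000129, adjusted p = 1). Its dimmer probe set had a log2 change against LIF of -0.50 (adjusted p = 0.485), in the other direction from the reported set at 0.27 (adjusted p = 0.322). Zap70, a kinase of T cells that is also made in mouse embryonic stem cells, read 38, 47 and 82.1 with LIF, 24.6, 29 and 38.5 without LIF, and 42.9, 77.5 and 53 with lithium alone, overlapping LIF. Marchf7, a ubiquitin ligase, read 1380.2, 1521 and 937 with LIF, 1172, 1309 and 1074 without LIF, and 1299, 1323 and 1336 with lithium alone, with overlap among the conditions. Adm2 and Ighmbp2 were dim and variable (log2 change 0.00 and 0.33). The 1 LIF-repressed gene that was not higher was Srprb (-0.02).

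The smallest p in lithium alone against LIF-free, passing over provisional symbols, was that of Gpr3, a receptor that raises cyclic AMP without a ligand. Gpr3 read 8.05, 19.8 and 32.9 with LIF, 2.96, 4.08 and 2.99 without LIF, and 28.1, 18.3 and 13.9 with lithium alone. Each lithium value exceeded every LIF-free value and lay inside the LIF range, but all were dim. The difference was 2.55 (95% interval 1.33 to 3.76, unadjusted p = 0.000561, adjusted p = 1). Bnip5 and Krtap12-1 followed at 2.28 (95% interval 0.86 to 3.7, unadjusted p = 0.00416, adjusted p = 1) and 2.0 (95% interval 0.70 to 3.3, unadjusted p = 0.00538, adjusted p = 1).

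The other large falls with lithium alone were in dim genes. Nkx6-3, a homeobox gene, read 47.3, 47 and 148 with LIF and 12.7, 1.04 and 8.6 with lithium alone (log2 change -3.84 ± 0.76 SE, adjusted p = 0.00862), and Sema4a, a semaphorin, read 30.6, 38.2 and 65.3 with LIF and 2.6, 2.48 and 11.1 with lithium alone (log2 change -3.35 ± 0.59 SE, adjusted p = 0.00505). In both the lithium values stayed below every LIF value. Rfx2 (log2 change -3.32), S100a7l2 (-3.24), Dnajb13 (-3.43) and Cxcl14 (-3.17) completed the 10 largest. Dimmer probe sets of Rfx2 (-0.776, adjusted p = 0.612) and Cxcl14 (-0.145, 0.94) were not called. Nkx6-3, Sema4a, Rfx2, S100a7l2, Dnajb13 and Cxcl14 had log2 changes of -1.92, -1.49, -1.67, -0.96, -1.29 and -0.89 with the pseudocount. Each of Rfx2, S100a7l2, Dnajb13 and Cxcl14 lost its call without at least 1 of LIF replicates 2 and 3 and lithium-alone replicates 1 and 2 (adjusted p up to 0.101). Rfx2, S100a7l2 and Cxcl14 lost theirs under at least 1 of no intensity trend and the fit to 6 arrays (adjusted p up to 0.114).

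Activin and Nodal signalling, which supports pluripotency through SMAD2 and SMAD3, had called members in both directions. Of 17 measured members, 4 fell, 2 rose and 11 were not called (35.3% called, beside 12.3% of all genes). Beside Inhbb and Tdgf1, Lefty2, a secreted inhibitor of Nodal and also its target, fell (log2 change -1.44 ± 0.22 SE, adjusted p = 0.00299) and read 61.7, 70.4 and 80.1 with LIF, 39, 33.6 and 33.2 without LIF, and 22.9, 25.3 and 30.3 with lithium alone. All 3 lithium values of Lefty2 lay below its LIF-free range. Pcsk6, a convertase that activates Nodal, fell by 1.19 on the log2 scale (adjusted p = 0.0178). Smad3 rose (log2 change 0.96 ± 0.15 SE, adjusted p = 0.00302), and so did Acvr2a, an activin receptor (log2 change 0.63, adjusted p = 0.0408). Nodal itself (-0.22, adjusted p = 0.626) and Smad2 (0.37, 0.166) were not called. Each of Pcsk6 and Acvr2a lost its call without at least 1 of LIF replicates 2 and 3 and lithium-alone replicates 1, 2 and 3 (adjusted p up to 0.148). Pcsk6 and Acvr2a lost theirs under at least 1 of median centring, no filter, no intensity trend, the fit to 6 arrays and quantile normalisation (adjusted p up to 0.252).

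The FGF genes moved in both directions, with 4 of 18 measured members lower, 3 higher and 11 not called (38.9% called, beside 12.3% of all genes). Fgf4, the FGF that naive cells make and that drives their exit, read 353, 679.8 and 735 with LIF, 81.3, 154 and 168 without LIF, and 59.1, 168 and 177 with lithium alone (log2 change -2.22 ± 0.43 SE, adjusted p = 0.00799). Etv4, Etv5 and Spry4, which ERK signalling induces, fell with it, at log2 changes of -3.46, -1.23 and -1.52 (adjusted p = 0.00913, 0.0138 and 0.00426). Dusp6 (-0.21, 0.616) and Spry2 (0.38, 0.492), also induced by ERK, were not called. Fgfr2 rose (log2 change 1.47 ± 0.29 SE, adjusted p = 0.00831). Etv4 had a log2 change of -2.21 with the pseudocount, and its dimmer probe set, at -0.904, was not called (adjusted p = 0.33). Etv5 lost its call without LIF replicate 3 (adjusted p = 0.0534). Etv5 lost its call under median centring or the fit to 6 arrays (adjusted p up to 0.0893).

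Fgf5, which marks primed epiblast cells, rose most on the log2 scale among called genes, with the floor of 1. With a pseudocount of 16 its change was 2.14, below those of Usp18 (2.57) and Cyp26a1 (2.41). Fgf5 read 32.6, 4.16 and 1.44 with LIF, 114, 108 and 143 without LIF, and 54.6, 108 and 150.5 with lithium alone. Every lithium value was above every LIF value, but the LIF arrays ranged from near the floor to 32.6 (log2 change 4.05 ± 1.13 SE, adjusted p = 0.0407). A dimmer probe set of Fgf5 had a log2 change of 2.4 and was not called (adjusted p = 0.0891). The difference from LIF-free was -0.33 (95% interval -2.76 to 2.1), too wide to bound. In the primed epiblast list 4 of 21 measured members rose, 2 fell and 15 were not called (median log2 change 0.74, 28.6% called beside 12.3% of all genes). The count called higher was 9 without LIF replicate 1, 2 without lithium-alone replicate 1, and 1 without LIF replicate 2 or lithium-alone replicate 2. Sox4 (1.61), Car14 (1.7) and Cldn6 (1.02) rose beside Fgf5, while Tcf15 (log2 change -2.27 ± 0.23 SE, adjusted p = 0.000975) and Lefty2 fell. Otx2 (0.42, adjusted p = 0.27), Pou3f1 (0.74, 0.253) and Dnmt3b (0.76, 0.169), the defining factors of that state, were not called. Their summed signal with Fgf5 was 825 to 2007 with LIF and 1905 to 2410 with lithium alone, with overlap. Car14 had a log2 change of 1.05 with the pseudocount. Each of Fgf5, Sox4, Car14 and Cldn6 lost its call without at least 1 of LIF replicates 2 and 3 and lithium-alone replicates 1, 2 and 3 (adjusted p up to 0.151). Fgf5, Car14 and Cldn6 lost theirs under at least 1 of median centring, no filter, no intensity trend and the fit to 6 arrays (adjusted p up to 0.0848).

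Some Wnt-beta-catenin target genes were higher with lithium alone than with LIF, and such targets were also higher in cultures that had neither. Of 19 measured targets, 6 rose, none fell and 13 were not called (median log2 change 1.71, 31.6% called beside 12.3% of all genes). The count was 13 without LIF replicate 1, and 3 without LIF replicate 2, LIF replicate 3 or lithium-alone replicate 2. In LIF-free against LIF, which shares the LIF arrays, 6 of the 19 were called higher. The median of the same 19 was 1.45 for LIF-free against LIF and 0.07 for lithium alone against LIF-free, where 0 were called and 0 had an unadjusted p under 0.05. Axin2, the scaffold whose transcription follows beta-catenin most generally, read 33.2, 18.3 and 17.8 with LIF, 73, 53.3 and 56.8 without LIF, and 69, 108 and 50.7 with lithium alone (log2 change 1.71 ± 0.38 SE, adjusted p = 0.0147). Only lithium-alone replicate 2 stood above the LIF-free range. The difference from LIF-free was 0.26 (95% interval -0.56 to 1.07). Dkk1, a secreted Wnt inhibitor, read 93.9, 19 and 29.1 with LIF, 219, 203 and 207 without LIF, and 266, 179 and 173 with lithium alone (log2 change 2.44 ± 0.44 SE, adjusted p = 0.00566), a rise shared by the LIF-free cultures at 2.49. Msx2 and Tnfrsf19 rose with log2 changes of 2.28 and 2.67 (adjusted p = 0.0068 and 0.00842). Lef1, a TCF factor and a target, was not called (log2 change 1.91 ± 0.73 SE, adjusted p = 0.125). It was called without LIF replicate 1 (adjusted p = 0.0424) and with the replicate block (0.00117). With the pseudocount its log2 change was 1.24. Axin2 lost its call without LIF replicates 2 or 3 or lithium-alone replicate 2 (adjusted p up to 0.074).

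Genes of the machinery that lithium acts on were called about as often as genes at large. Of 18 measured genes for GSK3, the beta-catenin destruction complex and TCF factors, 2 rose, none fell and 16 were not called (median log2 change 0.14), 11.1% called beside 12.3% of all genes. Ctnnb1, beta-catenin, read 3712, 4017 and 3832 with LIF, 4914, 4113 and 4584 without LIF, and 4523, 4687 and 4292 with lithium alone and was not called (log2 change 0.22 ± 0.11 SE, adjusted p = 0.22). Gsk3b was called higher (log2 change 1.28 ± 0.36 SE, adjusted p = 0.042), while its other 5 probe sets had log2 changes from 0.34 to 0.65 and were not called. Gsk3a, the other GSK3 gene, had a log2 change of -0.09 (adjusted p = 0.866). Fbxw11, a ubiquitin ligase subunit for beta-catenin, was called at 0.50, while its brighter cross-hybridising set, at 0.61, was not (adjusted p = 0.0536). In a list of 12 measured enzymes that lithium inhibits or that feed the inositol cycle, GSK3 genes included, only Gsk3b was called (8.33%). Impa1, the inositol monophosphatase (-0.06, adjusted p = 0.896), and Slc5a3, the inositol transporter (0.32, 0.574), were not. Each of Gsk3b and Fbxw11 lost its call without at least 1 of LIF replicates 2 and 3 and lithium-alone replicates 1, 2 and 3 (adjusted p up to 0.155). Gsk3b and Fbxw11 lost theirs under at least 1 of median centring, no filter, no intensity trend and the fit to 6 arrays (adjusted p up to 0.338).

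Trophoblast and simple epithelium genes had the largest share of members called higher among the 21 lists. Of 19 measured members, 12 were higher, none lower and 7 not called (median log2 change 1.42, 63.2% called beside 12.3% of all genes). With any 1 of the 6 arrays left out, 9 to 13 were called higher. Krt18, Krt19 and Krt7, keratins of simple epithelia, rose with log2 changes of 1.45, 1.77 and 1.32. Krt18 read 2707, 1757 and 2163 with LIF, 6465, 5196 and 6309.5 without LIF, and 6421, 5828 and 5616 with lithium alone (log2 change 1.45 ± 0.19 SE, adjusted p = 0.00141). Gata3, a transcription factor of trophoblast and other epithelia, read 16.4, 11.5 and 9.14 with LIF, 49.7, 73.7 and 36.6 without LIF, and 85.8, 72.4 and 49.9 with lithium alone (log2 change 2.5 ± 0.37 SE, adjusted p = 0.00229), with no overlap against LIF and with overlap against LIF-free. The 10 members called higher in LIF-free than in LIF all had a lithium bound under 50% of the rise. The trophoblast marker Elf5 was under the filter in these arrays, and the summed signal of Cdx2, Elf5 and Gata3 was 28.8 to 51.8 with LIF and 87.8 to 175 with lithium alone. Gata3 had a log2 change of 1.58 with the pseudocount.

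Germ layer lists had called members in both directions. The share called was 28.6% in the primitive streak list, 15.8% in early and cardiac mesoderm, 28.6% in primitive and visceral endoderm and 30.8% in the neural list, beside 12.3% of all genes. In the primitive streak list 3 of 14 rose and 1 fell, in early and cardiac mesoderm 2 of 19 rose and 1 fell, in primitive and visceral endoderm 4 of 21 rose (1 without LIF replicate 2 or lithium-alone replicate 2, 2 without LIF replicate 3 or lithium-alone replicate 1) and 2 fell, and in the neural list 2 of 13 rose and 2 fell. Tbx20, a T-box gene of heart development, read 81.2, 42.3 and 44.1 with LIF, 132, 147 and 105 without LIF, and 162, 139 and 118 with lithium alone (log2 change 1.38 ± 0.25 SE, adjusted p = 0.00565). Cited1, a coactivator found in visceral endoderm and trophoblast, read 90.8, 52.2 and 52.3 with LIF, 299, 348 and 226 without LIF, and 264, 289 and 226 with lithium alone (log2 change 2.04 ± 0.27 SE, adjusted p = 0.00141). Both genes separated lithium alone from LIF on all arrays. Lhx1, Evx1 and Foxa2 of the streak and node had log2 changes of 3.33, 3.43 and 1.16. The endoderm factors Gata6 (0.23, adjusted p = 0.791), Gata4 (-0.20, 0.768) and Sox17 (0.60, 0.199) were not called. Sox11 (1.67) and Gap43 (1.93) rose in the neural list, where Stmn2 fell (log2 change -1.02 ± 0.17 SE, adjusted p = 0.00391). Sox1 (0.707) and Pax6 (0.931) had adjusted p far from the threshold. The other fall of the neural list was Neurod1 (-1.60, adjusted p = 0.0491). The fall of the mesoderm list was Myl7 (-1.36, 0.0417). Lhx1, Evx1, Neurod1 and Myl7 had log2 changes of 1.41, 1.34, -0.82 and -0.78 with the pseudocount. Each of Lhx1, Evx1, Foxa2, Sox11, Gap43 and Myl7 lost its call without at least 1 of LIF replicates 2 and 3 and lithium-alone replicates 1, 2 and 3 (adjusted p up to 0.154). Neurod1 lost its call with any 1 of the 6 arrays left out (adjusted p up to 0.186). Lhx1, Evx1, Foxa2 and Stmn2 lost theirs under at least 1 of median centring, no filter, no intensity trend and the fit to 6 arrays (adjusted p up to 0.0954). Neurod1 and Myl7 lost theirs under each of median centring, quantile normalisation, no filter and the fit to 6 arrays (adjusted p up to 0.125).

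The largest rises beside Fgf5, again with the floor of 1, were Rtp4, Vdr, Bmp5, Usp18, Foxa1, Evx1, Cyp26a1, Nhsl2 and Lhx1. Vdr, the vitamin D receptor, read 1.99, 2.25 and 2.22 with LIF, 21.1, 27.5 and 22.3 without LIF, and 25.5, 30.2 and 23 with lithium alone (log2 change 3.6 ± 0.52 SE, adjusted p = 0.00215), with LIF near the floor of the scale on all 3 arrays. A dimmer probe set of Vdr had a log2 change of 0.86 and was not called (adjusted p = 0.55). The retinoic acid hydroxylase gene Cyp26a1, itself induced by retinoic acid, read 37.1, 10.2 and 8.88 with LIF, 231, 256 and 118 without LIF, and 149, 252 and 101 with lithium alone (log2 change 3.38 ± 0.57 SE, adjusted p = 0.00403). For both, lithium alone and LIF-free had overlapping ranges. Bmp5, Foxa1 and Nhsl2 had log2 changes of 3.58, 3.54 and 3.34. The LIF-repressed genes with the largest changes in the other arrays included Aplnr, Cdh11, Rspo3, Hand2 and Fgf8, all at 2.28 or more with lithium alone, yet none of these 5 was called (adjusted p from 0.05, just above the threshold, to 0.103). Each of Aplnr, Cdh11, Rspo3 and Fgf8 was called without LIF replicate 1 (adjusted p = 0.0118, 0.0126, 0.00507 and 0.0369), Cdh11 also without lithium-alone replicate 3 (0.0307), and each under at least 1 of median centring, quantile normalisation, the fit to 6 arrays and the pseudocount (adjusted p down to 0.00684). With the replicate block all 5, Hand2 included, were called (adjusted p up to 0.0261). Aplnr, the apelin receptor of early mesoderm, read 70.6, 2.96 and 13.9 with LIF, 424, 304 and 163 without LIF, and 250.3, 276 and 156 with lithium alone, without overlap but with LIF values from 2.96 to 70.6. A dimmer probe set of Aplnr had a log2 change of 0.655 (adjusted p = 0.641). Of the other members of that group of 10, Rgs5 was called at 2.84, and Amer3 (2.29, adjusted p = 0.11) and Rbms3 (1.69, 0.139) were not, although Amer3 was called without LIF replicate 1 (0.0266). Vdr, Bmp5, Foxa1, Nhsl2 and Rgs5 had log2 changes of 1.22, 1.87, 1.51, 1.56 and 1.53 with the pseudocount. For the uncalled Cdh11, Rspo3, Hand2, Fgf8, Amer3 and Rbms3 these were 2.28, 1.85, 1.36, 1.29, 1.14 and 0.90. Each of Bmp5, Foxa1, Nhsl2 and Rgs5 lost its call without at least 1 of LIF replicates 2 and 3 and lithium-alone replicates 1, 2 and 3 (adjusted p up to 0.184). Bmp5, Foxa1 and Rgs5 lost theirs under at least 1 of no filter, no intensity trend and the fit to 6 arrays (adjusted p up to 0.116).

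Interferon-stimulated genes rose in 9 of 21 measured members, with 1 lower and 11 not called (median log2 change 0.89, 47.6% called beside 12.3% of all genes). The count called higher was 1 and 3 without LIF replicates 2 and 3, and 5, 2 and 5 without lithium-alone replicates 1, 2 and 3. B2m, the light chain of class I antigen presentation, read 746, 535 and 505 with LIF, 1315, 1397 and 1853 without LIF, and 1158, 1529 and 1529 with lithium alone (log2 change 1.25 ± 0.18 SE, adjusted p = 0.00213). Psmb8, Usp18 and Rtp4 had log2 changes of 2.84, 3.56 and 3.61, each with LIF replicate 1 well above the other LIF arrays. Xaf1 fell (log2 change -1.26 ± 0.22 SE, adjusted p = 0.00509). Germ cell genes fell in 5 of 9 measured members, Mael (log2 change -2.33 ± 0.45 SE, adjusted p = 0.00785), Dazl (-2.28), Stra8 (-1.93), Ddx4 (-1.29) and Prdm14 (-1.20), and none rose (55.6% called, beside 12.3% of all genes). That count was 1 without LIF replicate 2 or lithium-alone replicate 1, and 3 without lithium-alone replicate 2. Psmb8, Rtp4 and Dazl had log2 changes of 1.72, 2.08 and -1.31 with the pseudocount. Each of Psmb8, Usp18, Rtp4, Dazl, Stra8, Ddx4 and Prdm14 lost its call without at least 1 of LIF replicates 2 and 3 and lithium-alone replicates 1, 2 and 3 (adjusted p up to 0.17). Rtp4, Stra8, Ddx4 and Prdm14 lost theirs under at least 1 of median centring, no filter, no intensity trend and the fit to 6 arrays (adjusted p up to 0.204).

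Among stress and p53 target genes 5 of 20 measured members fell, 1 rose and 14 were not called (30% called, beside 12.3% of all genes). The count called lower was 1 and 2 without LIF replicates 2 and 3, and 3, 2 and 3 without lithium-alone replicates 1, 2 and 3. Those that fell, Chac1 (log2 change -1.57 ± 0.26 SE, adjusted p = 0.0037), Ddit3 (-1.28), Trib3 (-1.08), Atf4 (-0.60) and Asns (-0.53), belong to the ATF4 branch of the amino acid response. The p53 targets Cdkn1a (-0.25, adjusted p = 0.557) and Mdm2 (0.00, 0.996) were not called. Chac1 read 88.8, 105 and 88.8 with LIF, 30.5, 54.4 and 50.8 without LIF, and 31.5, 36.5 and 27.2 with lithium alone, with every lithium value below LIF. Atf3, an early stress factor, rose (log2 change 1.5 ± 0.21 SE, adjusted p = 0.00184). In the cell cycle list 22 of 24 were not called, and the share called (8.33%) lay below that of all genes (12.3%). Cdkn1c (p57), an imprinted inhibitor of cyclin-dependent kinases, rose and read 249, 109 and 159.9 with LIF, 809, 796 and 590.4 without LIF, and 872, 765 and 599 with lithium alone (log2 change 2.17 ± 0.33 SE, adjusted p = 0.00264), and Ccne1, cyclin E, fell (log2 change -0.99 ± 0.14 SE, adjusted p = 0.00189). A slightly brighter cross-hybridising probe set of Ccne1 had a log2 change of -0.25 and was not called (adjusted p = 0.676). Mki67 (0.47, adjusted p = 0.325) and Top2a (-0.08, 0.778), markers of dividing cells, were not called. Each of Ddit3, Trib3, Atf4 and Asns lost its call without at least 1 of LIF replicates 2 and 3 and lithium-alone replicates 1, 2 and 3 (adjusted p up to 0.126). Ddit3, Trib3, Atf4, Asns and Ccne1 lost theirs under at least 1 of median centring, no intensity trend and the fit to 6 arrays (adjusted p up to 0.382).

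Fibroblast genes rose in 4 of 13 measured members, Col5a1 (log2 change 1.73 ± 0.34 SE, adjusted p = 0.00871), Cxcl12 (2.8), Twist2 (3.07) and Col6a1 (1.38), and none fell (30.8% called, beside 12.3% of all genes). That count was 7 without LIF replicate 1, 2 without lithium-alone replicate 2, and 1 without LIF replicate 2 or lithium-alone replicate 1. None of the 4 feeder markers was called, and they did not move together. Thy1 had a log2 change of -0.94 (adjusted p = 0.12), Col1a2 of -0.11 (0.91), Col1a1 of 2.64 (0.0834) and Col3a1 of 1.71 (0.0984). Col3a1 was 4.66 to 21.8 with LIF and 27.5 to 60.9 with lithium alone, without overlap, and Col1a1 was 1.31 to 16.7 and 13.9 to 40.8, with overlap. The part of feeder cells in the fibroblast genes was not tested. In the endothelium and blood list 2 of 9 fell, Pecam1 (-2.06), which naive stem cells also carry on their surface, and Vwf (-2.07). None rose, so 22.2% were called beside 12.3% of all genes. Across the 21 lists, 107 of 320 measured genes were called with lithium alone against LIF, 53 higher and 54 lower, beside 12.3% of all genes called. Leaving out LIF replicate 1, 2 or 3 gave 144, 52 or 71, and leaving out lithium-alone replicate 1 or 2 gave 66 or 62. Cxcl12, Twist2, Col6a1 and Vwf had log2 changes of 1.77, 1.33, 0.73 and -1.12 with the pseudocount. Each of Cxcl12, Twist2, Col6a1, Pecam1 and Vwf lost its call without at least 1 of LIF replicates 2 and 3 and lithium-alone replicates 1, 2 and 3 (adjusted p up to 0.101). Twist2, Col6a1 and Vwf lost theirs under at least 1 of median centring, no filter and the fit to 6 arrays (adjusted p up to 0.0974).

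**Figure D4:**
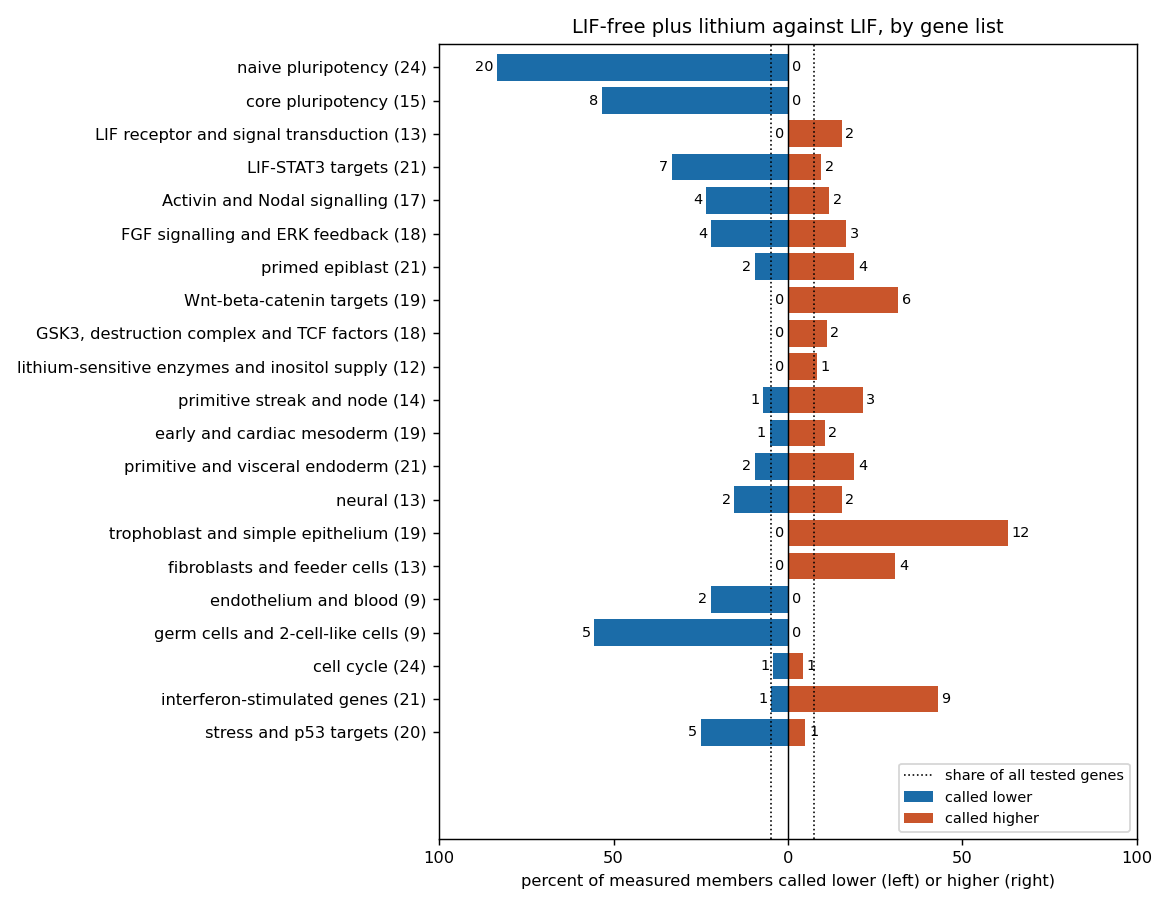
Percent of the measured members of each of 21 gene lists (number measured in brackets) called lower (left) or higher (right) with lithium alone against LIF; the numbers at the bars are genes and the dotted lines mark the shares of all tested genes, 4.86% and 7.44%. The naive list reaches 20 of 24 lower and the trophoblast and simple epithelium list 12 of 19 higher.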

How the data were processed

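The authors deposited linear MAS5 signal intensity for each probe set, computed with MAS5 per the submitters' processing notes; its settings are not given in the sources used here. A floor of 1 was applied, which touched 0.146% of tested values, before taking log2. Probe sets above the 40th percentile of mean log2 signal (a signal of 7.52 on the linear scale) were tested, 27022 of 45037. Symbols came from the platform annotation: 34945 probe sets have 1, 932 several and 9160 none, and none with several was named. A gene was its brightest tested probe set (_x_at only where it had no other). Of 6042 genes with 2 or more tested sets, only Zmynd8 had sets called in opposite directions.

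All 12 arrays entered a linear model with 4 condition means (limma 3.58.1, R 4.3.3, eBayes with intensity trend), two-sided, with Benjamini-Hochberg adjustment over 27022 probe sets and a threshold of 0.05. The number of arrays limits the precision: in this fit, without the replicate block, the median 95% interval of a gene reached 0.53 log2 units to each side. The main fit was also run on simulated data with independent noise on each array. That leaves out any correlation between equal replicate numbers, and its outcome is not given here. Plots used Python 3.11.15 and matplotlib 3.10.9.

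The genes, lists, rules and tests were chosen with earlier results of these data known. Named were 20 fixed genes, the 10 largest rises and falls among called genes without overlap, the 10 largest LIF-dependent and LIF-repressed genes of the other 6 arrays, up to 4 called members per list, and the 3 smallest p for lithium alone against LIF-free. Provisional symbols (Rik, LOC and numbered Gm names) were passed over. Other list members were named after their values were seen.

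Equal replicate numbers, from the labels, were taken as pairs where all 3 correlations of array residuals passed 0.1. They did for LIF-free with lithium alone (0.462, 0.111 and 0.3), LIF with LIF-free (0.438, 0.137 and 0.339) and LIF-free with LIF plus lithium (0.542, 0.188 and 0.365). They did not for LIF with lithium alone. Alternatives were quantile normalisation, median centring, a pseudocount of 16, no filter, the 60th percentile, the replicate block, no intensity trend, only the compared arrays, averaging a gene's probe sets, and each array left out.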

Additional observations from a re-analysis of the deposited data

How the results depend on the processing

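No named gene changed direction where it was called, under any alternative run for it. Lithium alone against LIF-free had 0 calls under each setting run for it and with each of its 6 arrays left out. Called probe sets with lithium alone against LIF were 1061 with median centring and 1024 with only the 6 compared arrays, and from 1050 to 3759 with 1 array left out. For LIF-free against LIF, calls were 1560 with median centring, 1674 with no intensity trend, 1168 with only its own arrays, 5260 with the replicate block, and from 1039 to 3950 with 1 array left out. LIF-dependent and LIF-repressed genes called in the 6-array fit were 64 and 57 with no filter, 0 and 0 with no intensity trend (392 and 552 at an unadjusted p under 0.05), 525 and 776 in the fit to 12 arrays, and from 0 to 463 and from 0 to 729 with 1 array left out. List members called were 70 with only the 6 arrays and from 52 to 144 with 1 array left out. The cause of these shifts was not tested, except that fewer arrays leave fewer residual degrees of freedom. The replicate numbers of LIF and lithium alone did not meet the pairing criterion (residual correlations 0.385, 0.0316 and 0.181). All 3 were positive, and whether these arrays are paired is not known. With the replicate block on these conditions, 5073 probe sets, 683 LIF-dependent genes, 932 LIF-repressed genes and 163 list members were called, and it ended no call of a named gene. Of 107 called genes among the 129 named by rule or after their values were seen, 49 kept their call with every array left out in turn, and 58 lost it without at least 1. Median centring ended 31 of these calls, the fit to 6 arrays 39, no intensity trend 23, no filter 17 and quantile normalisation 3. Named genes without a call gained one in 3 cases with median centring, 3 with quantile normalisation, 3 in the fit to 6 arrays, 4 with the pseudocount, 1 with the 60th percentile filter and 8 with the replicate block. Those 8 were Amer3, Aplnr, Cdh11, Fgf8, Hand2, Lef1, Lifr and Rspo3.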
